A study of Homo sapiens with 24 samples.

Results

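Nuclear alanine tRNAs are the adaptors that carry alanine to its codons in cytosolic translation. They were taken as every isodecoder (a tRNA species with its own sequence) whose name begins with tRNA-Ala, and as the 3 anticodon families AGC, CGC and TGC into which these fall, with no mitochondrial row. This gave 27 of 286 isodecoder rows and 3 of 74 anticodon rows. Of the 27 isodecoders, 16 had the anticodon AGC, 4 had CGC and 7 had TGC.

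Transfer RNA of HEK293T cells, a human embryonic kidney line, was isolated by gel from total RNA of undrugged cells and sequenced as small RNA libraries, with E. coli tRNA added as a spike-in. The cells were wild type (set 1 and set 2) or knocked out for DUS1L (clones 1-9 and 2-4), DUS2L (clones 1-8 and 2-1) or DUS3L (clones 1-5 and 2-8), with 3 libraries in each of 8 groups, 24 in all. Each knockout group is a single cell line clone, and the labels do not say that its replicates were separate cultures, so p-values measure only the spread between these libraries. The deposited values are summaries per comparison, with no value per library and no sequencing depth. The tables call the clones #1 and #2 without saying which labelled clone is which.

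Every alanine tRNA is recognised by alanyl-tRNA synthetase through a G:U wobble pair in the acceptor stem, with little regard to the anticodon. The A at the start of the anticodon AGC is deaminated to inosine by the ADAT2/ADAT3 enzyme, which lets that family read several alanine codons. The 3 knocked-out genes encode dihydrouridine synthases, which reduce uridines of tRNA to dihydrouridine, a base that makes the RNA backbone more flexible. Uridines of the D loop are the substrates of DUS1L and DUS2L, and a uridine of the variable loop that of DUS3L.

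The sequences of a pair of alanine genes, the only ones that could be read here, are given from the human build GRCh38. They show the bases at positions that these enzymes can reach, for these genes alone. TRA-AGC10-1 lies at chr6:26687257-26687329 on the plus strand, in an exon of the long noncoding RNA gene AL513548.1, and TRA-AGC2-2, a second gene of the AGC-2 isodecoder, at chr6:28863685-28863756 on the minus strand. The first was read from a GENCODE transcript and the second from a RefSeq promoter window, both 5′ to 3′ as DNA, so that T stands for U. Capitals mark base 3, the bases between position 15 and the first G of the D loop pair, base 20, the anticodon, base 47 and base 70.
TRA-AGC10-1: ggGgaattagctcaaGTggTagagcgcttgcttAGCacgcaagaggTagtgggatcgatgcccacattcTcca
TRA-AGC2-2: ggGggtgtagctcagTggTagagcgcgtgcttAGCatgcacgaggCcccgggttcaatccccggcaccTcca
Both hold G at base 3 and T at base 70, the pair read by alanyl-tRNA synthetase, and both hold T in the D loop at base 20. At base 47, in the variable loop, AGC10-1 has T and AGC2-2 has C. The AGC10-1 gene is 73 bases long and the AGC2-2 gene 72, and the added base falls in the D loop.

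By name, 25 of the 27 isodecoders matched a RefSeq tRNA gene, and 20 of these lie on chromosome 6. Of the 25, 19 lay between genes, 4 in an intron and 2 in an exon of another gene in GENCODE. The most abundant member, AGC-4-1, lies between genes at chr6:28658237-28658308. AGC-6-1 is at chr6:28812072-28812143 and AGC-2-1 at chr6:28838444-28838515, the latter in an intron of the long noncoding RNA gene AL662890.1. The leading TGC members are elsewhere, TGC-3-1 at chr5:181206868-181206939 and TGC-4-1 at chr12:124939966-124940037, both between genes. Among the AGC genes matched, 6 are 72 bases long and 8 are 73. Isodecoders that differ by few bases share reads, and how the authors assigned such reads is not given in the sources used here, so values of single isodecoders are uncertain in that respect.

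The level of each family was recovered for each group from the deposited mean of normalised counts and both fold changes. In the DUS1L table the wild type held 16691 normalised counts of Ala-AGC, 7557 of Ala-TGC and 1380 of Ala-CGC. The DUS2L table's wild type held the families in the same order, at 37772, 17183 and 3167 normalised counts, and the DUS3L table's wild type at 2818, 973 and 236. Over 20 alanine isodecoders the DUS2L table's wild type stood at 2.25 to 2.33 times that of the DUS1L table, a spread from highest to lowest of 1.04 times, as one set of wild-type libraries in a different scaling would give. The DUS3L table's wild type stood at 0.0517 to 2.23 times that of the DUS1L table, a spread of 43.1 times, so the wild-type sets differed in alanine isodecoders. Tables were normalised separately, and levels are not tested across them. The headers do not name the wild-type set of a table. From the first ratio, the DUS1L and DUS2L comparisons are treated below as sharing their controls, and their values as not independent of each other.

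Loss of DUS2L was the condition in which alanine tRNAs were called lower as families. Ala-TGC was at 17183 normalised counts in wild type, 4450 in clone #1 and 6669 in clone #2. The log2 fold change in the authors' deposited table was -1.95 ± 0.53 (SE, 3 libraries a group) in clone #1 and -1.37 ± 0.53 in clone #2, with adjusted p = 0.00217 and 0.0287 (the authors' p-values adjusted by Benjamini-Hochberg over the whole table). Both clones thus fell below the threshold of 0.05 used throughout. Ala-CGC was at 3167, 1044 and 2017 normalised counts in wild type, clone #1 and clone #2. It fell in clone #1 by 1.60 ± 0.55 (adjusted p = 0.0181), while clone #2 had -0.65 ± 0.54 (adjusted p = 0.343) in the authors' deposited table. Ala-AGC was at 37772, 14804 and 28949 normalised counts. It fell in clone #1 by 1.35 ± 0.57 (adjusted p = 0.0497), while clone #2 had -0.38 ± 0.57 (adjusted p = 0.62) in the authors' deposited table. So all 3 families passed in clone #1, against 26.8% of all anticodon rows called lower there, and 1 of 3 in clone #2, against 25.4%. The 1 family that passed in both clones, Ala-TGC, compares with 18.3% of all anticodon rows lower in both.

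The whole table moved in these clones. The median nuclear family stood at -1.10 in clone #1 and -0.45 in clone #2 on the log2 scale, and 38 and 33 of 49 nuclear families lay below 0. Relative to that median, Ala-TGC was at -0.85 (adjusted p = 0.248) and -0.92 (adjusted p = 0.17), Ala-CGC in clone #1 at -0.50 (adjusted p = 0.574) and Ala-AGC in clone #1 at -0.25 (adjusted p = 0.847), and no alanine family passed, where 4.23% and 11.3% of all anticodon rows were then lower. With the E. coli spike-ins as reference, Ala-TGC in clone #1 was the 1 alanine family call that passed. Of all anticodon rows, 12.7% were then lower in clone #1 and 11.3% in clone #2. Of the 3 families, Ala-TGC alone was thus called lower in both clones as deposited, and none in either clone relative to the median nuclear family.

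**Figure D1:**
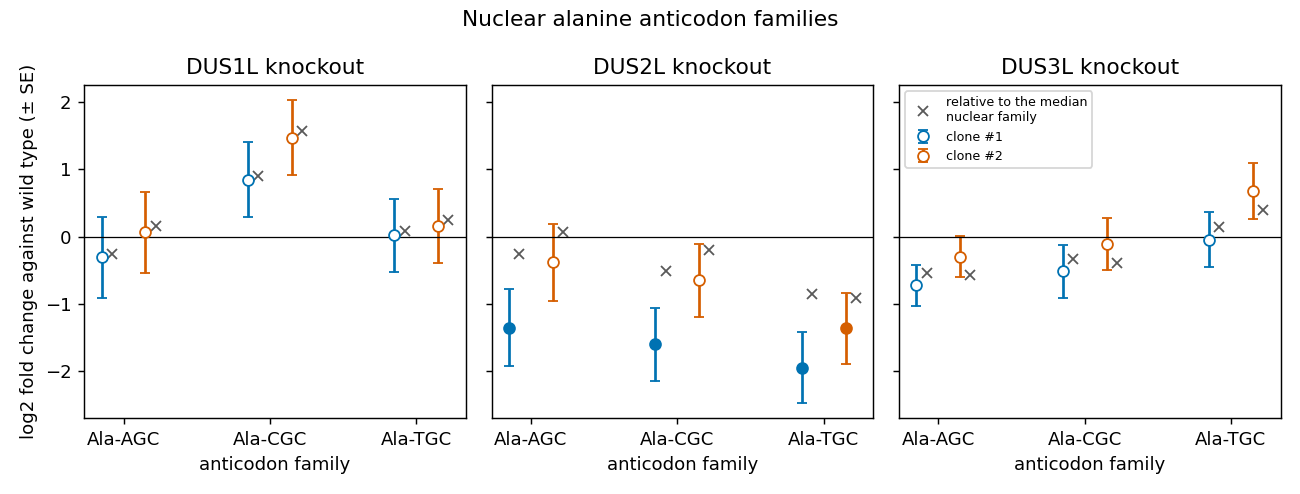
Log2 fold change against wild type (y axis) of the 3 alanine anticodon families (x axis) in clone #1 (blue) and clone #2 (orange) of each knockout; bars are the SE, filled points passed an adjusted p of 0.05, and grey crosses are the same values relative to the median nuclear family. Only DUS2L points are filled, from -1.35 to -1.95, and their crosses lie nearer 0, from -0.25 to -0.92.

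Inside the families, isodecoders were called in both directions in the DUS2L clones. Of 27 alanine isodecoders, 6 were higher in both clones, where 16.7% of all isodecoder rows were, and 9 were lower in both, where 26.8% were. In clone #1 by itself 6 were higher and 14 lower (16.7% and 37.3% of all rows), and in clone #2 by itself 6 higher and 10 lower (21.4% and 30.8%). Whether the alanine counts differ from these whole-table shares was not tested. Relative to the median nuclear isodecoder, the count lower in both clones was 3 (9.06% of all rows), and that in clone #1 was 6 (10.5%). Scaled to the spike-ins, 3 were lower in both clones (14.5%). In clone #1 by itself every lower call but that of CGC-3-1 then stayed, where 25.7% of all rows were lower. Of the 27, 25 had a mean of at least 10 normalised counts. Over these 25, the median log2 fold change was -1.80 in clone #1 and -1.05 in clone #2, beside -1.003 and -0.47 over all nuclear isodecoders of that mean.

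The 9 lower members were 5 of the 7 TGC and 4 of the 16 AGC isodecoders. TGC-3-1, a main TGC isodecoder with a pair of genes in RefSeq, was at 5437 normalised counts in wild type, 980 in clone #1 and 1694 in clone #2. It fell by 2.47 ± 0.51 (adjusted p = 9.35e-06) and by 1.68 ± 0.51 (adjusted p = 0.00299) in the authors' deposited table. TGC-2-1 was at 606, 85.7 and 163 normalised counts. In the authors' deposited table it fell by 2.82 ± 0.48 (adjusted p = 6.45e-08) and by 1.89 ± 0.48 (adjusted p = 0.000266). Relative to the median nuclear isodecoder both passed too, at -1.47 and -1.21 for TGC-3-1 and -1.82 and -1.42 for TGC-2-1.

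TGC-1-1, TGC-4-1 and TGC-5-1 completed the 5 lower members of that family, with log2 fold changes from -1.93 to -2.67 in clone #1 and from -1.09 to -1.47 in clone #2 in the authors' deposited table. TGC-4-1, the leading TGC species of this wild type, went from 9023 normalised counts to 2362 and 3345. None of these 3 passed in both clones relative to the median nuclear isodecoder.

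AGC-10-1, whose sequence is printed above, had the lowest fold changes of the alanine isodecoders with a mean of at least 10 in both clones. It was at 86.9 normalised counts in wild type, 6.36 in clone #1 and 11.5 in clone #2. In the authors' deposited table it fell by 3.77 ± 0.73 (adjusted p = 2.18e-06) and by 2.92 ± 0.65 (adjusted p = 3.19e-05), and relative to the median nuclear isodecoder it stood at -2.77 and -2.45, which also passed. AGC-2-1, from the genes of which the second printed sequence is one, was at 5482, 1188 and 2230 normalised counts. It fell by 2.21 ± 0.49 (adjusted p = 2.98e-05) and by 1.30 ± 0.49 (adjusted p = 0.017) in the authors' deposited table, and did not pass in both clones relative to the median. AGC-3-1 and AGC-5-1 were also lower in both clones, again not relative to the median. AGC-4-1 was at 27143 normalised counts in wild type, 6501 in clone #1 and 12483 in clone #2. It fell in clone #1 by 2.06 ± 0.67 (adjusted p = 0.00494), while clone #2 had -1.12 ± 0.67 (adjusted p = 0.141) in the authors' deposited table. Its clone #1 call ended relative to the median nuclear isodecoder (-1.06, adjusted p = 0.219) but stayed when scaled to the spike-ins (-1.80, adjusted p = 0.0181).

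Of the 4 CGC isodecoders, CGC-1-1, CGC-2-1 and CGC-3-1 passed as lower in clone #1 and none passed in clone #2. None of the 3 passed in clone #1 relative to the median nuclear isodecoder (adjusted p = 0.0901, 0.212 and 0.561), and scaled to the spike-ins CGC-3-1 did not (adjusted p = 0.0844). CGC-1-1, at chr6:26553503-26553574 between genes, was at 1332, 300 and 626 normalised counts in wild type, clone #1 and clone #2. CGC-4-1 was at 397, 339 and 746 normalised counts. Its log2 fold changes were -0.23 ± 0.54 and 0.91 ± 0.54 (adjusted p = 0.735 and 0.141) in the authors' deposited table, so it did not pass in either clone. In clone #2 it passed as higher relative to the median nuclear isodecoder (1.38, adjusted p = 0.026) and scaled to the spike-ins (1.38, adjusted p = 0.0266).

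The members that were higher in both DUS2L clones were AGC-6-1, AGC-8-2, AGC-14-1, AGC-16-1, TGC-6-1 and TGC-7-1; AGC-8-2 and TGC-6-1 lay outside the rule for named tRNAs and were chosen after their values were seen. AGC-6-1 was at 766 normalised counts in wild type, 3093 in clone #1 and 6562 in clone #2. It was 2.01 ± 0.47 (adjusted p = 9.54e-05) and 3.10 ± 0.47 (adjusted p = 6.43e-10) higher, as log2 differences in the authors' deposited table. AGC-8-2 was at 795, 1777 and 3802 normalised counts, with log2 fold changes of 1.16 ± 0.31 (adjusted p = 0.000584) and 2.26 ± 0.31 (adjusted p = 4.05e-12) in the authors' deposited table. These are AGC isodecoders of the same anticodon as the species that fell.

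AGC-14-1, at chr6:26673362-26673434 between genes, was at 7.45 normalised counts in wild type and at 46.3 and 56.8 in the clones, with log2 fold changes of 2.63 ± 0.73 and 2.93 ± 0.72 (adjusted p = 0.00109 and 0.000216) in the authors' deposited table. TGC-6-1 was at 288, 628 and 622 normalised counts, with log2 fold changes of 1.12 ± 0.35 and 1.11 ± 0.35 (adjusted p = 0.00344 and 0.00381) in the authors' deposited table. AGC-16-1 and TGC-7-1 were nearly without counts in that wild type, at 0.401 normalised counts each. The DUS2L clones held 58.9 and 61.1 of AGC-16-1 and 20.1 and 42.1 of TGC-7-1, and both DUS1L clones under 1 of each. All 6 also passed as higher in both clones relative to the median nuclear isodecoder (25.0% of all rows) and when scaled to the spike-ins (17.8%). In clone #2 by itself 8 were higher under each scaling (26.8% of all rows), the added pair being CGC-4-1 and AGC-1-1 (1.503 and 1.499, adjusted p = 0.00914 and 0.00931), the last chosen after its values were seen. No fold is given for AGC-16-1 and TGC-7-1, since the deposited fold rests on a wild type with almost no counts.

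**Figure D2:**
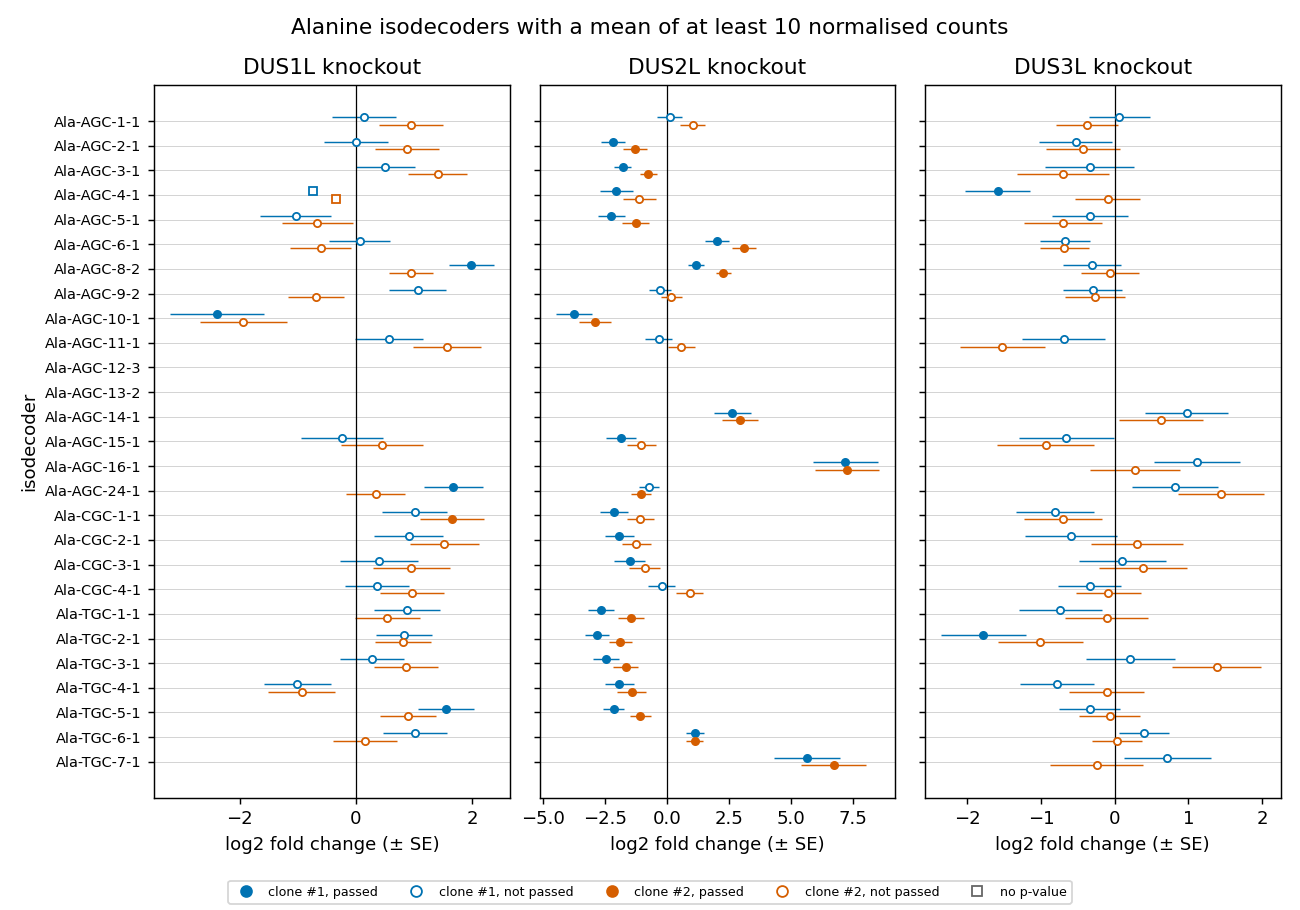
Log2 fold change against wild type (x axis, with its own range in each panel) of the alanine isodecoders with a mean of at least 10 normalised counts (y axis) in clone #1 (blue) and clone #2 (orange); bars are the SE, filled points passed an adjusted p of 0.05 and squares have no p-value. In the DUS2L panel 9 isodecoders are filled to the left in both clones and 6 to the right, and the values of AGC-16-1 and TGC-7-1 rest on a wild type of 0.401 normalised counts.

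The recovered make-up of each family differed between wild type and the DUS2L clones. AGC-4-1 was 71.9% of Ala-AGC in the DUS2L table's wild type, and 43.9% and 43.1% in the clones. AGC-6-1 went from 2.03% to 20.9% and 22.7%, and AGC-8-2 from 2.11% to 12.004% and 13.1%. In Ala-CGC the share of CGC-4-1 went from 12.5% to 32.5% and 37.0%, and in Ala-TGC that of TGC-6-1 from 1.68% to 14.1% and 9.33%. The share of TGC-4-1 was 52.5% in wild type and 53.1% and 50.2% in the clones. These are shares of recovered levels, with no error per library.

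The wild type of the DUS3L table had a make-up of its own. There AGC-4-1 was 37.8% of Ala-AGC and AGC-6-1 26.4%, CGC-4-1 was 23.7% of Ala-CGC and TGC-6-1 17.3% of Ala-TGC. Expressed as the part of a family that would have to be exchanged to turn one make-up into the other, Ala-AGC of the DUS2L clones differed by 36.1% and 37.4% from its own wild type and by 12.4% and 12.5% from the wild type of the DUS3L table. Ala-CGC likewise differed by 20.6% and 24.4% from its own wild type and by 11.2% and 13.2% from the other. For Ala-TGC the order was the other way, with 13.4% and 9.87% from its own wild type and 31.9% and 28.97% from the other. The 2 wild-type sets differed from each other by 38.7% in Ala-AGC, 11.2% in Ala-CGC and 31.3% in Ala-TGC. AGC-16-1 and TGC-7-1 were at 19.0 and 17.5 normalised counts in the wild type of the DUS3L table, and AGC-10-1 at 0.643. AGC-10-1 was 0.0228% of Ala-AGC in that wild type. It was 0.230% in the DUS2L table's wild type and 0.0430% and 0.0397% in the DUS2L clones. What separated the wild-type sets is not given in the sources used here, and its part in the DUS2L differences was not tested.

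**Figure D3:**
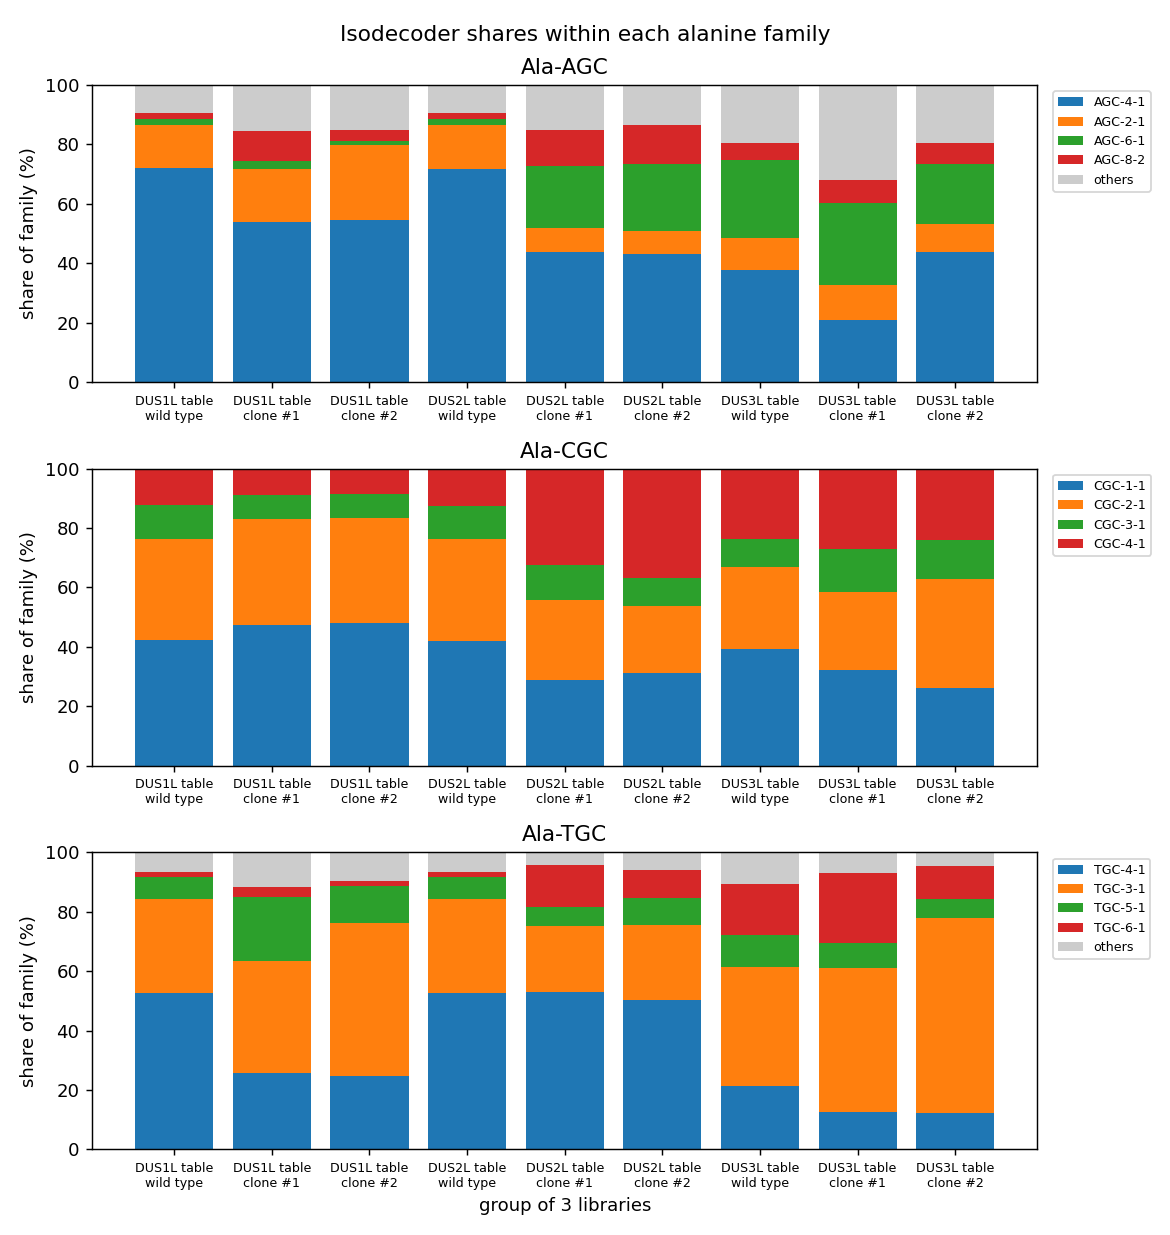
Share of each alanine family (y axis, percent of its recovered normalised counts) held by its main isodecoders in each group of 3 libraries (x axis, with the table and the clone named). AGC-6-1 (green, upper panel) is 2.00% to 2.03% of Ala-AGC in the wild type of the DUS1L and DUS2L tables, 20.9% and 22.7% in the DUS2L clones and 26.4% in the wild type of the DUS3L table.

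Loss of DUS1L gave no call in any alanine family. Ala-CGC was at 1380 normalised counts in wild type, 2487 in clone #1 and 3837 in clone #2, so that both clones lay above wild type. Its log2 fold change in the authors' deposited table was 0.85 ± 0.56 in clone #1 and 1.48 ± 0.56 in clone #2 (adjusted p = 0.404 and 0.188, the latter from an unadjusted p of 0.00804). Ala-AGC was at 16691, 13475 and 17432 normalised counts and Ala-TGC at 7557, 7678 and 8432. Their log2 fold changes ran from -0.31 to 0.16 with SEs from 0.55 to 0.60 in the authors' deposited table, and none passed. At an unadjusted p of 0.05, 0 alanine families passed in clone #1 and 1, Ala-CGC, in clone #2. Over nuclear families, 9 and 8 of the 45 with a p-value did. Of all anticodon rows 5.71% were called in clone #1 and 0.0% in clone #2.

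Among isodecoders, 3 of 27 were higher and 1 lower in DUS1L clone #1 (15.6% and 5.09% of all isodecoder rows), and 1 was higher and 0 lower in clone #2 (2.55% and 5.82%). Relative to the median nuclear isodecoder 5 were higher in clone #2 (6.55% of all rows), namely AGC-3-1, AGC-8-2, AGC-11-1, CGC-1-1 and CGC-2-1. Scaled to the spike-ins, only CGC-1-1 of these passed (adjusted p = 0.0340), where 2.55% of all rows were higher. As deposited, none passed in both clones, where 1.45% of all rows were higher and 2.91% lower. At an unadjusted p of 0.05, 5 of the 26 with a p-value passed in clone #1 and 7 in clone #2. Over nuclear isodecoders, 81 and 59 of the 250 with a p-value did. AGC-24-1, AGC-8-2 and TGC-5-1 were the higher ones in clone #1, the first pair chosen after their values were seen. AGC-8-2 was at 346 normalised counts in wild type, 1376 in clone #1 and 667 in clone #2. In the authors' deposited table it was 1.99 ± 0.38 higher in clone #1 (adjusted p = 1.16e-05) and at 0.95 ± 0.38 in clone #2 (adjusted p = 0.0927). Relative to the median nuclear isodecoder, at 0.19 in clone #1 and -0.18 in clone #2, it passed in both, at 1.81 and 1.13, as 2.91% of all rows did. Scaled to the spike-ins, its clone #2 value did not pass (0.95, adjusted p = 0.0896).

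TGC-5-1, at chr6:28817235-28817306 between genes, was at 571, 1671 and 1066 normalised counts, with log2 fold changes of 1.55 ± 0.49 and 0.90 ± 0.49 (adjusted p = 0.00988 and 0.253) in the authors' deposited table. TGC-4-1 was at 3987 normalised counts in wild type and at 1984 and 2087 in the clones, a log2 difference of -1.01 ± 0.58 and -0.93 ± 0.58 that did not pass (adjusted p = 0.236 and 0.327). Its share of Ala-TGC was 52.8% in wild type and 25.8% and 24.7% in the clones, lower in both. CGC-1-1 was the member that passed in clone #2, from 582 normalised counts to 1842, a log2 fold change of 1.66 ± 0.55 (adjusted p = 0.0349) in the authors' deposited table; clone #1 stood at 1176.

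AGC-10-1 was also low in the DUS1L clones, at 38.6 normalised counts in wild type, 7.37 in clone #1 and 10.1 in clone #2. It fell by 2.39 ± 0.80 in clone #1 (adjusted p = 0.0176), and clone #2 had -1.94 ± 0.75 (adjusted p = 0.0771) in the authors' deposited table. By the ratio of wild-type levels, this value and that of the DUS2L comparison rest on the same controls. AGC-4-1, at 12052 normalised counts in wild type and at 7269 and 9494 in the clones, has no p-value in the authors' deposited table and was not called. A total of 22 of 27 isodecoders had a mean of at least 10, with a median log2 fold change of 0.45 in clone #1 and 0.84 in clone #2, beside 0.19 and -0.18 over all nuclear isodecoders.

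Loss of DUS3L left no alanine family past the threshold. Ala-AGC was at 2818 normalised counts in wild type, 1707 in clone #1 and 2292 in clone #2, and Ala-CGC at 236, 165 and 219, with the wild type highest in each. In the authors' deposited table Ala-AGC had -0.72 ± 0.31 (adjusted p = 0.169) in clone #1 and -0.30 ± 0.31 in clone #2. Scaled to the spike-ins, its clone #1 value of -0.88 passed (adjusted p = 0.0422), where 6.76% of all anticodon rows were lower. Ala-TGC was at 973, 944 and 1559 normalised counts, with clone #2 at 0.68 ± 0.41 (adjusted p = 0.455) in the authors' deposited table. At an unadjusted p of 0.05, 1 alanine family passed in clone #1 and 0 in clone #2, beside 13 and 7 of 49 nuclear families. Of all anticodon rows 8.11% were called in clone #1 and 5.41% in clone #2.

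Of the isodecoders, AGC-4-1 and TGC-2-1 were lower in DUS3L clone #1 and none was higher (5.32% and 2.48% of all rows). In clone #2 none passed (10.6% of all rows were higher and 1.06% lower). With an unadjusted p of 0.05 as the limit, 5 of 27 did in clone #2, beside 55 of the 257 nuclear isodecoders with a p-value. AGC-11-1, chosen after its values were seen, passed as lower there relative to the median nuclear isodecoder (-1.73) and scaled to the spike-ins (-1.69), as 1.77% of all rows did under each. None passed in both clones (2.48% higher and 1.06% lower over all rows). AGC-4-1 was at 1068 normalised counts in wild type, 355 in clone #1 and 999.6 in clone #2, so that clone #1 alone was low. It fell by 1.59 ± 0.44 in clone #1 (adjusted p = 0.00625), while clone #2 had -0.10 ± 0.44 (adjusted p = 0.942) in the authors' deposited table. TGC-2-1 was at 48.2, 14.01 and 23.99 normalised counts and fell by 1.78 ± 0.57 in clone #1 (adjusted p = 0.0283), with -1.01 ± 0.57 (adjusted p = 0.353) in clone #2 in the authors' deposited table. Its clone #1 call ended relative to the median nuclear isodecoder (-1.61, adjusted p = 0.0546) but stayed when scaled to the spike-ins (-1.94, adjusted p = 0.0107). Over the 24 isodecoders with a mean of at least 10 the median was -0.34 in clone #1 and -0.11 in clone #2, beside -0.17 and 0.21 over all nuclear isodecoders.

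The share of all nuclear tRNA held by alanine tRNAs was 2.27% in the DUS1L table's wild type and 2.41% and 3.58% in its clones. It was 2.28% in the DUS2L table's wild type and 1.27% and 1.502% in its clones. In the DUS3L table it was 0.853%, 0.305% and 0.436%. Gly-GCC, the leading nuclear family there, held 55.6% of nuclear tRNA in that wild type and 73.9% and 67.8% in the clones, and it held 9.16%, 28.2% and 32.6% in the DUS2L table. A share of the pool therefore moved with Gly-GCC as well as with the alanine tRNAs, and the part of either was not tested. Levels of a tRNA in such libraries also depend on reverse transcription, which modified bases can stop, and a loss of tRNA and a loss of readable tRNA cannot be told apart here.

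A direct comparison of clone #2 with clone #1, without the wild type, found no difference that passed in any alanine family (2.94% of anticodon rows were lower in DUS1L, 4.05% higher in DUS3L and 0.0% either way in DUS2L). In the DUS2L clones the difference was 0.97 ± 0.57 for Ala-AGC, 0.95 ± 0.55 for Ala-CGC and 0.58 ± 0.53 for Ala-TGC on the log2 scale, with clone #2 higher in each. Hence the calls in clone #1 alone are not shown to be particular to that clone. Among isodecoders 3 were lower in DUS1L clone #2 than in clone #1 (15.8% of all rows tested), 1 was higher in DUS3L clone #2 (7.39%), and 0 passed in DUS2L (0.0%). The DUS1L and DUS3L counts fell to 0 relative to the median nuclear row and with the squared SEs of both clones summed. That sum counts the spread of the shared wild-type libraries, which cancels between clones, so it is stricter by construction.

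Genes of 72 and of 73 bases in the Ala-AGC family were set side by side, a feature that the choice of members did not use. The 6 isodecoders of 72 bases held 94.0% of Ala-AGC in the DUS1L table's wild type, 93.9% in the DUS2L table's wild type and 84.6% in that of the DUS3L table. The 8 of 73 bases held 5.00% in the DUS2L table's wild type and 16.7% and 16.9% in its clones. Among these 8, AGC-8-2 by itself held 2.11% in that wild type and 12.004% and 13.1% in those clones. Most of the gain in the DUS2L clones was therefore that of AGC-8-2, not of the 73-base members as a set. In the DUS1L table the 8 held 4.95% in wild type and 16.2% and 9.47% in the clones. AGC-8-2 held 2.07% in that wild type and 10.2% and 3.83% in clones #1 and #2. In the DUS2L clones 4 and 3 of the 72-base members passed as lower and 1 as higher, and of the 73-base members 2 were lower and 2 higher in each clone. Of all isodecoder rows 37.3% and 30.8% were lower and 16.7% and 21.4% higher, and a difference between the lengths was not tested.

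The families that begin their anticodon with A, the substrates of inosine formation, are 8 with Ala-AGC, of which 7 had a p-value in the DUS1L and DUS2L tables. Of these, 3 passed as lower in DUS2L clone #1 (Ala-AGC, Arg-ACG and Pro-AGG) and 3 in clone #2 (Leu-AAG, Pro-AGG and Ser-AGA). Ile-AAT passed as higher in clone #2. Over all anticodon rows, 26.8% and 25.4% were lower in clones #1 and #2, and 16.9% were higher in clone #2. The median over the 8 was -1.40 in clone #1 and -0.51 in clone #2, beside -1.10 and -0.45 over all nuclear families. In DUS3L clone #1, 2 of the 8 passed as lower (Ile-AAT and Thr-AGT, where 5.41% of all anticodon rows did). In DUS3L clone #2 and both DUS1L clones 0 did, where 0.0% of all anticodon rows were lower.

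The families whose 6 log2 fold changes were nearest to those of an alanine family, by Euclidean distance over 48 other nuclear families, were not the other alanine families. Ala-AGC was nearest to Thr-CGT (distance 0.674) and Gln-CTG (0.853). Ala-CGC was nearest to Pro-CGG (0.521) and Glu-CTC (1.504), and Ala-TGC to Pro-AGG (0.911) and Pro-TGG (0.957). The alanine families lay 1.69 to 1.97 apart, while the median distance to the other families was 1.95 for Ala-AGC, 2.96 for Ala-CGC and 2.19 for Ala-TGC.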

How the data were processed

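Per the submitters' processing notes, fastp, STAR, featureCounts and DESeq2 were used with build hg38, without versions. How reads matching several tRNA genes were assigned, and the scaling, are not given in the sources used here. Per the file headers, the authors deposited for each tRNA a mean of normalised counts (a signal) and, for each clone against wild type, a log2 fold change and a p-value, which had not been adjusted. Fold (ratio) and -log10 columns that the authors deposited beside them were not used.

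With Python 3.11.15, numpy 2.4.6, pandas 2.3.3 and scipy 1.17.1 (figures with matplotlib 3.10.9), the deposited p-values were given a Benjamini-Hochberg adjustment per column, at a threshold of 0.05, in place of an adjusted p that the tables were planned to hold; rows without a p stayed out. Each SE is the size of the log2 fold change divided by the normal quantile that its p implies. Group levels followed from the deposited mean and the fold changes of both clones if each of the 3 groups has 3 libraries. A dispersion obtained the same way served the comparison of clones, run on rows with every level at 10 or more; that lower bound was set after the data were seen. Total depth per library is unknown, so no counting interval is given. The alternatives were centring on the median nuclear row, the spike-ins as reference, an adjusted p of 0.01 and a mean of at least 100. Others were a log2 fold change of 1 or more in size, summed isodecoder levels for families and summed squared SEs for clones. Centring and the spike-ins each subtract a fixed shift, for the spike-ins the mean of 3 rows, and keep the SE. The error of that shift is thus left out of their adjusted p.

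Named tRNAs were the families, the 3 isodecoders of highest mean in each, up to 8 per knockout past the threshold in both clones (mean of 10 or more), those with a wild-type level under 1, and the 2 nearest families. Members and lists were chosen with earlier results of these data known. Genes were placed with RefSeq and GENCODE annotation of GRCh38, of which RefSeq holds 33 alanine tRNA genes. Calling was tested on simulated data.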

Additional observations from a re-analysis of the deposited data

Results flagged for a closer look

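Between clones of the same knockout, the direct comparison of clone #2 with clone #1 passed in 4 isodecoder results, in DUS1L and DUS3L. AGC-4-1 was 1.49 ± 0.44 higher in DUS3L clone #2 than in clone #1 on the log2 scale (adjusted p = 0.00939, Benjamini-Hochberg). In DUS1L clone #2 AGC-9-2 stood at -1.75 ± 0.49 against clone #1 (adjusted p = 0.00684), AGC-24-1 at -1.34 ± 0.50 (adjusted p = 0.0494) and AGC-8-2 at -1.04 ± 0.38 (adjusted p = 0.0431); these 3 were chosen after their values were seen. Of all isodecoder rows tested, 15.8% were lower in that DUS1L comparison and 7.39% were higher in the DUS3L one. Whether the alanine calls differ from these shares was not tested. None of the 4 passed relative to the median nuclear row or with the squared SEs of both clones summed. The summed SE holds wild-type spread that cancels between clones, so the second check is stricter by construction.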

How the results depend on the processing

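No paired analysis was possible because the deposited tables hold no value per library; for the same reason no replicate was left out, and the replicate block was not run. Relative to the median nuclear row, the DUS2L family values moved to -0.25 (Ala-AGC), -0.50 (Ala-CGC) and -0.85 (Ala-TGC) in clone #1 and 0.065 (Ala-AGC, turned) and -0.92 (Ala-TGC) in clone #2, with no call, and Ala-TGC in DUS3L clone #1 turned to 0.14. Higher isodecoders in DUS2L clone #2 went from 6 to 8 under this scaling and with the spike-ins. Other isodecoder counts became 6 lower in DUS2L clone #1 (10.5% of all rows), 3 in clone #2 (18.5%) and 3 in both (9.06%). In DUS1L, 5 became higher in clone #2 (6.55%) and 1 in both clones (2.91%). In DUS3L, 1 was lower in each clone (3.55% and 1.77%). No isodecoder then differed between clones (0 in DUS1L and 0 in DUS3L), nor with summed squared SEs (0 and 0), which overstate the SE of that contrast. Among the isodecoders named, the values that turned in DUS1L clone #1 were AGC-1-1 (-0.045), AGC-2-1 (-0.18) and AGC-6-1 (-0.12). In DUS2L clone #1 they were CGC-4-1 (0.78), AGC-9-2 (0.72), AGC-11-1 (0.66) and AGC-24-1 (0.27). In DUS3L clone #2 they were AGC-10-1 (-0.052) and TGC-6-1 (-0.18). AGC-10-1 had a mean of 0.571 normalised counts in the DUS3L comparison and an SE of 3.52 in clone #2, so its sign is not resolved.

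With the spike-ins as reference, the DUS2L calls ended for Ala-AGC (-1.09) and Ala-CGC (-1.33) in clone #1 and Ala-TGC (-0.90) in clone #2, Ala-AGC in DUS3L clone #1 passed (-0.88), and Ala-AGC in DUS2L clone #2 (0.081) and Ala-TGC in DUS1L clone #1 (-0.16) turned. Lower isodecoders became 3 in DUS2L clone #2 (18.5% of all rows), 3 in both (14.5%) and 1 in DUS3L clone #2 (1.77%). AGC-1-1 (-0.041), AGC-2-1 (-0.17) and AGC-6-1 (-0.11) turned in DUS1L clone #1, and CGC-4-1 (0.039) in DUS2L clone #1. In DUS3L, AGC-1-1 (-0.097) and CGC-3-1 (-0.054) turned in clone #1, and AGC-10-1 (-0.013) and TGC-6-1 (-0.14) in clone #2. The sign of AGC-10-1 there rests on a mean of 0.571 normalised counts and is not resolved.

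At an adjusted p of 0.01, calls ended for Ala-AGC (-1.35) and Ala-CGC (-1.60) in DUS2L clone #1 and Ala-TGC (-1.37) in clone #2; lower isodecoders became 3 in DUS2L clone #2 and in both, 0 in DUS1L clone #1 and 1 in DUS3L clone #1, and higher ones 0 in DUS1L clone #2. With a mean of at least 100, higher isodecoders became 3 in each DUS2L clone and in both and 2 in DUS1L clone #2, and lower ones 0 in DUS1L clone #1 and 1 in DUS3L clone #1. These limits follow from fewer rows or a stricter threshold by construction, and no whole-table shares are given beside their counts. For the scalings the cause was not tested. Summed isodecoder levels kept the direction of each family value. A log2 change of at least 1 left 9 lower isodecoders in DUS2L clone #2 and 8 in both, and the other counts as they were.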
